A study of Macaca mulatta with 6 samples.

Results

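The genes described here are the EGR and KLF early zinc-finger transcription factors with the EGR corepressors: EGR1, EGR2, EGR3 and EGR4, NAB1 and NAB2, and KLF2, KLF4, KLF6 and KLF10. They were chosen by symbol. All 10 were found among the 24932 genes of the expression table, and the FPKM of all transcripts with the same symbol were added up. FPKM is a number of sequenced fragments scaled for transcript length and library depth, so levels can be compared between genes as far as the transcript models are complete. A mean of at least 1 FPKM over all libraries was reached by 9 of the 10 members and by 11818 genes in all, and EGR4 was below it. The table places EGR1 on chromosome 6, EGR2 and KLF6 on 9, EGR3 and KLF10 on 8, KLF4 on 15, NAB2 on 11, NAB1 on 12, EGR4 on 13 and KLF2 on 19. No source used here gives the genome build.

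The libraries came from RF/6A, a rhesus macaque line labelled as choroidal endothelial cells, grown to confluence on porous culture inserts. The 3 normal serum libraries came from cells kept for 4 hours in 50% normal human serum, in which complement is still active and can end in the membrane attack complex, a pore in cell membranes. The 3 heat-inactivated serum libraries came from cells kept for 4 hours in 50% human serum that had been heated, which inactivates complement. The comparison asks how transcripts differ between active and inactivated serum, and complement cannot be told apart from other heat-sensitive parts of serum. All cells were of 1 line, and the labels do not say that replicates were separate cultures. The p-values therefore rest on a spread between libraries that may be only technical.

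The fragments behind the values were read from the lowest values of genes with 1 transcript. In replicates 2 and 3 of both treatments 100% of these values were whole multiples of 1 fragment within 0.1, which gave depths of 14800000 and 17600000 fragments in normal serum, against 16400000 and 14400000 in heat-inactivated serum. The replicate 1 libraries gave 43.8% and 48.0% and stood apart from the other 4 on the second principal component of all genes, so results that rest on them are also given without them. Fragment numbers of the replicate 1 libraries, given below with the others, rest on this poorer fit and are less certain. Of the endothelial markers CDH5, the cadherin of endothelial junctions, stayed at or below 0.0185 FPKM in normal serum and was listed at 0 in heat-inactivated serum. Only PECAM1, ESAM and FLI1 of 11 endothelial markers found averaged 1 FPKM or more, and the data do not establish the labelled cell type.

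EGR genes are immediate early genes. Growth factors, calcium and stress act through the ERK kinase cascade on the factors SRF and ELK at their promoters, and transcripts appear within minutes without new protein synthesis. EGR proteins bind GC-rich sites, and NAB1 and NAB2 bind EGR proteins and silence them, NAB2 as part of a feedback loop because EGR proteins induce it. The KLF family binds related GC-rich and CACCC elements. KLF2 and KLF4 are known in endothelium as factors that flow induces through the kinases MEK5 and ERK5 and that keep vessels anti-inflammatory and anti-thrombotic. KLF6 is known as a factor induced by vessel injury, and KLF10 as an early gene of transforming growth factor beta (TGF-beta).

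After 4 hours the family was divided. EGR2, EGR3, KLF4 and KLF6 were higher in normal serum, NAB2 was lower, and EGR1, NAB1, KLF2 and KLF10 did not pass the test (limma on log2(FPKM + 1), Benjamini-Hochberg adjusted p under 0.05). The 5 calls among 9 tested members stand beside a background of 54.0% of all genes tested, of which 27.8% were higher and 26.1% lower, so the share of members called was near that of all genes. Of all calls 51.6% were higher in normal serum, and 34.7% were after the libraries were rescaled to a common total FPKM. The libraries of the treatments did not overlap for 6 of the 10 members, 5 higher and 1 lower. EGR4 is counted here as higher, though it was not tested and the shares that follow cover tested genes only. Of the genes tested 62.6% did not overlap, 32.1% higher and 30.5% lower. Within replicates 2 and 3 alone 6 members were called, KLF10 being the addition, beside 47.0% of all genes.

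**Figure D1:**
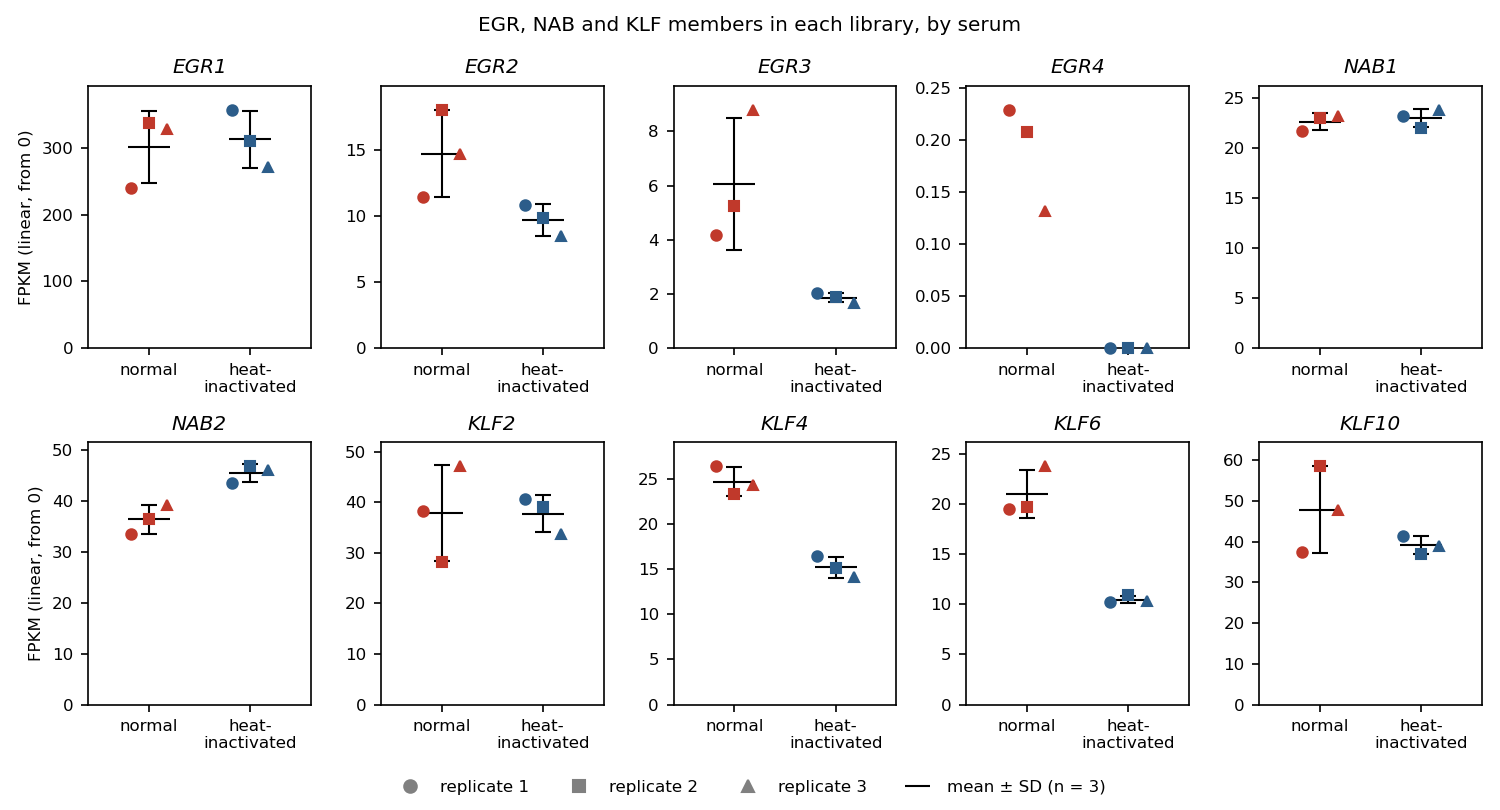
FPKM of each member (y axis, linear from 0, a scale of its own in each panel) in the 3 normal serum libraries (red, left) and the 3 heat-inactivated serum libraries (blue, right), with symbols for the replicate number and bars for the mean ± SD, which is left out for EGR4. EGR2, EGR3, EGR4, KLF4 and KLF6 have all normal serum points above the others, and NAB2 has them below. The EGR1 points of both treatments lie between 240 and 357 FPKM.

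EGR1, the founding member and a broad sensor of growth and injury signals, was by far the most abundant. It stood at 240, 338 and 328 FPKM in normal serum replicates 1 to 3, against 357, 310 and 271 FPKM in heat-inactivated serum replicates 1 to 3. The ranges overlapped, and normal serum held both the lowest library and values near the highest. The means were 302 ± 53.7 and 313 ± 42.7 FPKM (SD, n = 3 each), and the log2 change was -0.06 (95% interval -0.41 to 0.29, adjusted p = 0.766). The interval leaves room for a change of either sign. Within replicates 2 and 3 of both treatments alone the log2 change was 0.20 (adjusted p = 0.0972, limma). About 9646 to 17040 fragments per library lay behind these values, so counting error was not what limited them.

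EGR3, which acts beside EGR1 in neurons, muscle spindles and lymphocytes and is known as a target of calcineurin signalling, had the largest change of the tested members. It stood at 4.16, 5.23 and 8.79 FPKM in normal serum, against 2.04, 1.89 and 1.68 FPKM in heat-inactivated serum. All normal serum libraries were above all others, and replicate 3 was well above the rest. Mean EGR3 was 3.24-fold higher, a log2 change of 1.25 ± 0.22 (SE, adjusted p = 0.00253) on the log2(FPKM + 1) scale, which understates changes of low genes. The gene was low, with about 58 to 155 fragments in normal serum libraries and 24 to 33 in the others, and with a pseudocount of 5 in place of 1 the log2 change shrank to 0.67 and remained called.

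EGR2, known for its part in hindbrain patterning and myelination, rose less. It stood at 11.4, 18.0 and 14.7 FPKM in normal serum, against 10.8, 9.86 and 8.44 FPKM in heat-inactivated serum. The groups did not overlap, but normal serum replicate 1 was close to heat-inactivated serum replicate 1. The mean was 1.51-fold higher and the log2 change 0.54 ± 0.16 (SE, adjusted p = 0.0237). The EGR2 change was larger in replicates 2 and 3 alone (log2 0.77, adjusted p = 0.00560) and without normal serum replicate 1 (0.70, adjusted p = 0.00479). The call was lost when normal serum replicate 2 was left out, with a log2 change of 0.39 (adjusted p = 0.0607), or normal serum replicate 3, with 0.52 (adjusted p = 0.0652). Leaving out heat-inactivated serum replicate 2 gave 0.55 (adjusted p = 0.0545), and leaving out heat-inactivated serum replicate 3 gave 0.45 (adjusted p = 0.0763). The log2 change was 0.40 after rescaling to a common total FPKM (adjusted p = 0.0905) and 0.30 when only the highest transcript was used (adjusted p = 0.328), both not called.

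The table holds a pair of EGR2 transcript models, of 2813 and 2716 bases. The model of 2813 bases stood at 7.64, 16.0 and 11.4 FPKM in normal serum, against 9.36, 9.86 and 7.73 FPKM in heat-inactivated serum, with overlapping ranges. The model of 2716 bases stood at 3.75, 1.96 and 3.35 FPKM in normal serum, against 1.44, 0.000566 and 0.713 FPKM in heat-inactivated serum, and did not overlap. In a test over all 15719 transcripts with a mean of at least 1 FPKM, of which 39.6% were called, only the shorter EGR2 model passed (log2 1.29 ± 0.37, SE, adjusted p = 0.0334, against 0.380 for the longer). The authors' deposited table has it the other way, with a q-value of 0.0408 for the longer EGR2 model and 0.128 for the shorter. The models differ little in length, and which of them rose was not settled by these values.

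EGR4, the least studied of the family and known mainly from neurons and germ cells, was near the limit of detection. It was listed at 0.229, 0.208 and 0.132 FPKM in normal serum and at 0 in all 3 heat-inactivated serum libraries. These values come to about 4, 4 and 3 fragments per normal serum library. A count of 0 allows up to 3 fragments, so no fold is given. EGR4 was not in the gene test, and the exact two-sided permutation test over libraries gave p = 0.10, the smallest that 3 against 3 can give. When low genes were kept, limma called EGR4 (log2 0.25, adjusted p = 0.00583).

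EGR1 made up 93.3% to 93.8% of the summed EGR level in normal serum, against 96.3% to 96.5% in heat-inactivated serum, and these shares did not overlap. The share of EGR3 was 1.45% to 2.50% in normal serum and 0.552% to 0.596% in heat-inactivated serum. The EGR sum itself was 323 ± 58.1 FPKM in normal serum and 324 ± 44.0 FPKM in heat-inactivated serum (SD, n = 3 each), so the rises of EGR2 and EGR3 were small amounts of transcript beside EGR1.

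NAB2 was the member that fell. It stood at 33.6, 36.4 and 39.2 FPKM in normal serum, against 43.6, 46.9 and 46.2 FPKM in heat-inactivated serum. All normal serum libraries were below all others. The NAB2 mean was 0.798 of that in heat-inactivated serum, and the log2 change was -0.32 ± 0.073 (SE, adjusted p = 0.00788). It was -0.49 after rescaling on transcripts of at least 300 bases. NAB1, the other corepressor, stood at 21.7, 23.0 and 23.2 FPKM in normal serum, against 23.2, 22.0 and 23.8 FPKM in heat-inactivated serum. The NAB1 log2 change was -0.02 (95% interval -0.17 to 0.12, adjusted p = 0.777), the narrowest interval among the members.

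By the values listed per transcript model, the fall of NAB2 lay in 1 of its 3 models. How fragments that fit more than 1 model were divided between them was not tested. The model of 2500 bases stood at 17.3, 18.7 and 20.3 FPKM in normal serum, against 32.6, 31.3 and 33.2 FPKM in heat-inactivated serum, a log2 change of -0.76 ± 0.07 (SE, adjusted p = 0.000789 over all transcripts). The model of 2255 bases stood at 16.2, 17.0 and 18.9 FPKM in normal serum, against 11.1, 15.5 and 13.0 FPKM in heat-inactivated serum, and narrowly missed the threshold (log2 0.38 ± 0.13, SE, adjusted p = 0.0588). The third, of 966 bases, was at 0 in every library but normal serum replicate 2. The NAB2 model of 2500 bases thus made up 51.5% to 51.8% of the gene's level in normal serum, against 66.8% to 74.6% in heat-inactivated serum. These shares did not overlap (exact two-sided permutation p = 0.10, the smallest possible with 3 against 3). The authors' deposited table gives the same directions for the NAB2 models, with q-values of 0.000428 for the model of 2500 bases and 0.234 for that of 2255 bases.

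In the RefSeq annotation of assembly T2T-MMU8v2.0 the span of STAT6, a cytokine-activated transcription factor, contains NAB2. The library kit named in the labels does not mark strand, so fragments of the 2 genes cannot be told apart where they overlap. STAT6, named after its values were seen, also fell. It stood at 27.9, 31.2 and 30.5 FPKM in normal serum, against 41.3, 43.4 and 42.0 FPKM in heat-inactivated serum (log2 -0.49, adjusted p = 0.000648). The part of STAT6 fragments in the NAB2 values was not tested. NAB1 overlaps NEMP2 in part in the same annotation.

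**Figure D2:**
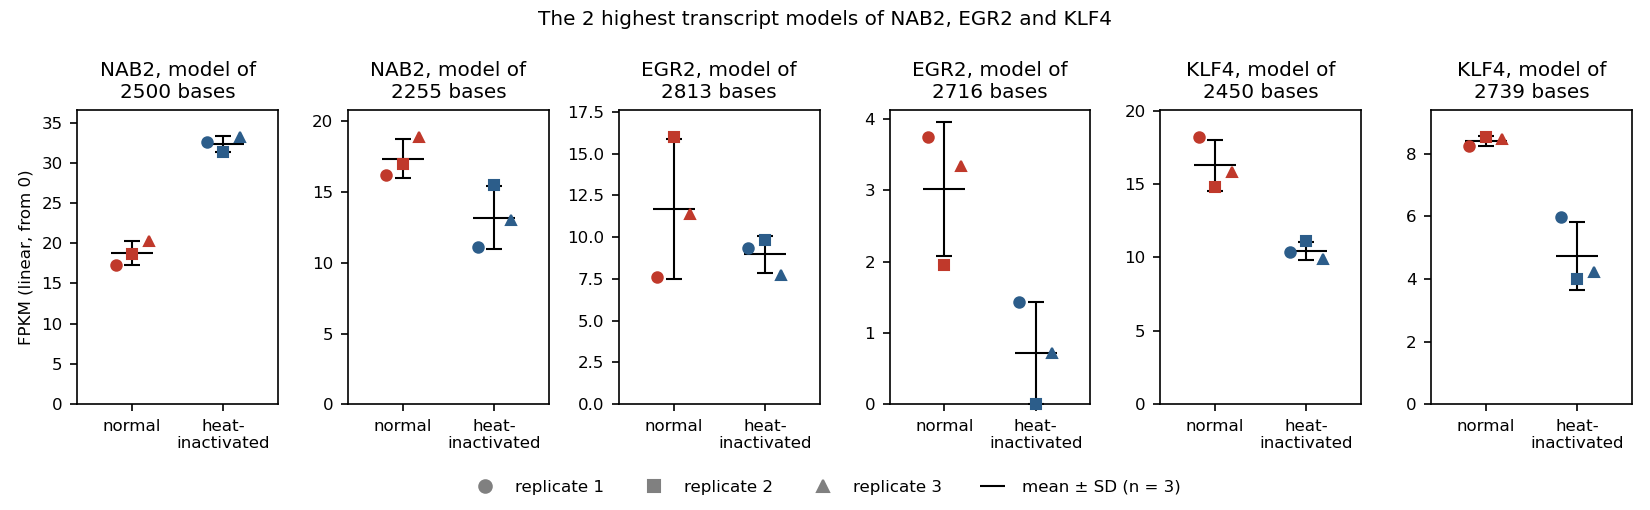
FPKM (y axis, linear from 0, a scale of its own in each panel) of the 2 highest transcript models of NAB2, EGR2 and KLF4 in normal serum (red, left) and heat-inactivated serum (blue, right) libraries, with bars for the mean ± SD (n = 3). The longer NAB2 model averages 18.8 FPKM in normal serum and 32.4 FPKM in heat-inactivated serum while the shorter averages 17.4 and 13.2 FPKM, and both KLF4 models are higher in normal serum.

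Among the KLF members KLF6 and KLF4 rose. KLF6 stood at 19.5, 19.7 and 23.8 FPKM in normal serum, against 10.2, 10.9 and 10.3 FPKM in heat-inactivated serum. The groups were far apart and the heat-inactivated serum libraries close together. Mean KLF6 was 2.01-fold higher, a log2 change of 0.94 ± 0.090 (SE, adjusted p = 0.000167), and the call held under all 20 alternatives (log2 0.75 to 0.99). Its model of 1513 bases carried nearly all of the level except in heat-inactivated serum replicate 2, where a model of 1335 bases took 9.23%.

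KLF4, also known as a reprogramming and barrier factor, stood at 26.4, 23.3 and 24.3 FPKM in normal serum, against 16.4, 15.1 and 14.1 FPKM in heat-inactivated serum. Mean KLF4 was 1.62-fold higher without overlap, a log2 change of 0.67 ± 0.079 (SE, adjusted p = 0.000424), and the call held under all 20 alternatives (log2 0.50 to 0.72). Both KLF4 transcript models rose. The model of 2450 bases averaged 16.3 ± 1.73 FPKM in normal serum and 10.5 ± 0.633 FPKM in heat-inactivated serum (adjusted p = 0.00462 over all transcripts, limma). The model of 2739 bases averaged 8.41 ± 0.161 FPKM in normal serum and 4.73 ± 1.09 FPKM in heat-inactivated serum (adjusted p = 0.00855, limma).

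KLF2, which shares many endothelial targets with KLF4, did not pass the test. It stood at 38.4, 28.2 and 47.2 FPKM in normal serum, against 40.6, 39.1 and 33.7 FPKM in heat-inactivated serum. Normal serum held both the lowest and the highest library. The log2 change of KLF2 was -0.02 (95% interval -0.43 to 0.38, adjusted p = 0.930). The only KLF2 model in the table is 519 bases long, and about 152 to 295 fragments per library lay behind it. The interval leaves room for a change of either sign.

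KLF10 varied between the normal serum libraries. It stood at 37.4, 58.6 and 47.7 FPKM in normal serum, against 41.4, 37.1 and 39.0 FPKM in heat-inactivated serum. Normal serum replicate 1 was among the low libraries and the other normal serum libraries were the highest. The log2 change of KLF10 was 0.26 ± 0.15 (SE, adjusted p = 0.171). Without normal serum replicate 1 it was 0.43 (adjusted p = 0.0135), and within replicates 2 and 3 alone it was 0.47 (adjusted p = 0.0173). In the authors' deposited table the main KLF10 model, of 2908 bases, has a log2 change of 0.26 and a q-value of 0.0161. Among the normal serum libraries replicate 1 was the lowest for EGR1 and KLF10, and also for EGR2, EGR3, NAB1, NAB2 and KLF6. It was the highest for KLF4 and EGR4.

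**Figure D3:**
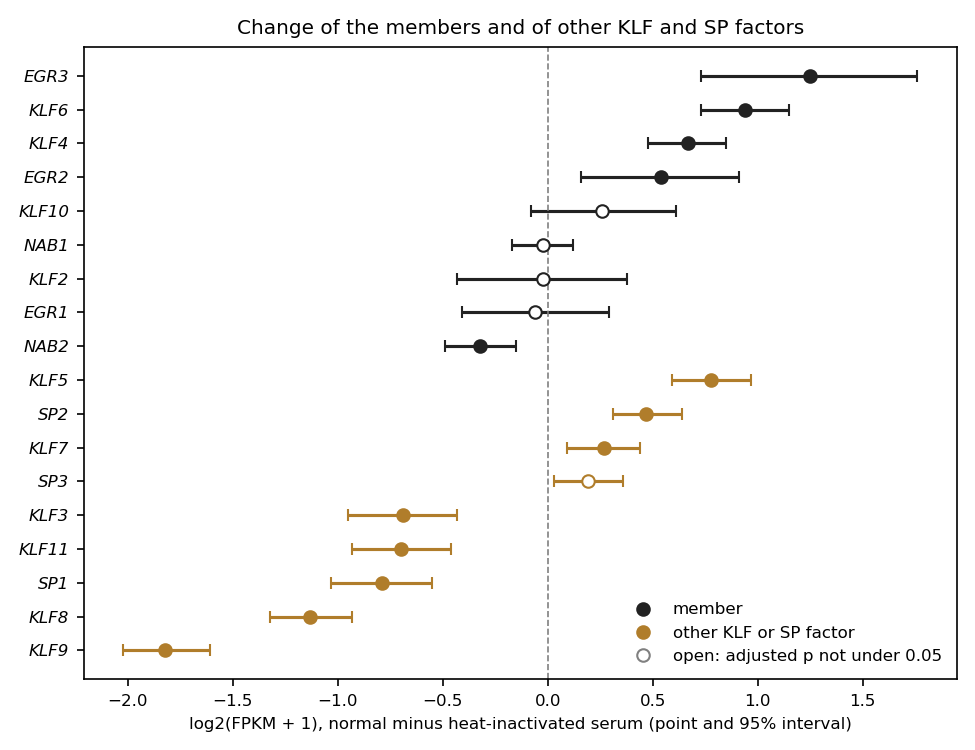
Log2 change in log2(FPKM + 1), normal minus heat-inactivated serum (x axis; point and 95% interval from limma), of the 9 tested members (black) and the 9 tested other KLF and SP factors (brown), ordered by size within each set. EGR3 (1.25) and KLF6 (0.94) head the members and NAB2 (-0.32) is lowest, while KLF9 (-1.82) and KLF8 (-1.13) lie at the lower end of the other factors; open points did not pass the test.

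By level, EGR1 was followed in normal serum by KLF10 (47.9 FPKM), KLF2 (37.9), NAB2 (36.4), KLF4 (24.7), NAB1 (22.6), KLF6 (21.0), EGR2 (14.7), EGR3 (6.06) and EGR4. Neighbouring libraries overlapped between KLF10 and KLF2, KLF2 and NAB2, and NAB1 and KLF6. In heat-inactivated serum the order after EGR1 was NAB2 (45.6 FPKM), KLF10 (39.1), KLF2 (37.8), NAB1 (23.0), KLF4 (15.2), KLF6 (10.4), EGR2 (9.70), EGR3 (1.87) and EGR4, with overlap between KLF10 and KLF2 and between KLF6 and EGR2. NAB2 thus stood below KLF10 and KLF2 in mean level in normal serum and above them in heat-inactivated serum. Over all libraries EGR1 was above 97.1% of the genes tested, KLF10 above 78.9%, and EGR3 above 19.9%.

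The sum of the 4 KLF members was 131 ± 10.8 FPKM in normal serum and 103 ± 5.79 FPKM in heat-inactivated serum (SD, n = 3 each). KLF6 made up 15.1% to 16.7% of it in normal serum, against 9.39% to 10.6% in heat-inactivated serum. KLF2 made up 21.7% to 33.0% in normal serum, against 34.7% to 38.3% in heat-inactivated serum. Neither pair of ranges overlapped, and the KLF2 level itself was not called. KLF2 levels and shares rest on a model of only 519 bases, and whether that model is complete was not tested.

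The other KLF and SP factors, listed beside the members, changed in both directions. Of 22 listed, 20 were in the table and 9 were high enough to be tested. There 3 were higher, 5 lower and 1 not called, beside 54.0% called among all genes tested. The median log2 change of these 9 factors was -0.69, against 0.01 over all genes tested. Within replicates 2 and 3 alone 2 were higher and 5 lower. The balance depended on the filter: with a mean of at least 5 FPKM 4 were higher and 4 lower (median -0.25), and with no filter 3 of 17 were higher and 6 lower (median -0.17). KLF9, a factor that glucocorticoid and thyroid hormone induce, fell furthest. It stood at 4.53, 4.13 and 4.47 FPKM in normal serum, against 19.8, 16.3 and 17.8 FPKM in heat-inactivated serum (log2 -1.82 ± 0.088, SE, adjusted p = 8.21e-06). KLF8 and KLF3, repressors that bind CTBP proteins, averaged 3.53 ± 0.200 and 5.34 ± 0.854 FPKM in normal serum, against 8.89 ± 0.555 and 9.17 ± 0.477 FPKM in heat-inactivated serum (log2 -1.13 and -0.69).

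KLF11, the closest relative of KLF10, fell to 2.93 ± 0.239 FPKM in normal serum, against 5.38 ± 0.568 FPKM in heat-inactivated serum (log2 -0.70). SP1, a constitutive activator at GC boxes, fell to 9.34 ± 1.48 FPKM in normal serum, against 16.8 ± 0.136 FPKM in heat-inactivated serum (log2 -0.79, adjusted p = 0.000660), which became -1.25 and was no longer called with only the highest transcript (adjusted p = 0.0655). KLF5, a factor of proliferating epithelium and smooth muscle, rose to 7.62 ± 0.421 FPKM in normal serum, against 4.00 ± 0.241 FPKM in heat-inactivated serum (log2 0.78, adjusted p = 0.000230). SP2 rose by 0.47 on the log2 scale and KLF7 by 0.27, but the KLF7 call was not firm. Its adjusted p was 0.0688 in replicates 2 and 3 alone, 0.367 after rescaling to a common total FPKM and 0.271 after rescaling on transcripts of at least 300 bases. It was 0.0552 without normal serum replicate 1, 0.0575 without normal serum replicate 3 and 0.0707 without heat-inactivated serum replicate 3. SP3 was at 36.1 ± 0.857 FPKM in normal serum and 31.5 ± 2.37 FPKM in heat-inactivated serum (adjusted p = 0.0508), and was called under 6 of the 20 alternatives. With a pseudocount of 5 the log2 changes of KLF5, KLF8 and KLF11 were 0.49, -0.70 and -0.39 and remained called.

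Of 16 tested genes of the ERK cascade and the SRF and ELK factors that feed the EGR promoters 5 were higher and 2 lower, with a median log2 change of 0.08. These calls stand beside 54.0% called among all genes tested. After quantile normalization 4 of the 16 were higher and 5 lower, beside 51.5% called among all genes. MAP2K1, the ERK-activating kinase MEK1, rose to 128 ± 4.72 FPKM in normal serum, against 71.3 ± 2.47 FPKM in heat-inactivated serum (log2 0.84, adjusted p = 3.92e-05). MAPK3, which encodes ERK1, fell to 20.7 ± 1.23 FPKM in normal serum, against 29.9 ± 0.823 FPKM in heat-inactivated serum. SRF rose by 0.49 and RPS6KA3, a kinase below ERK, by 0.34 on the log2 scale, calls lost with libraries rescaled to a common total FPKM (adjusted p = 0.0634 and 0.109), for RPS6KA3 also on transcripts of at least 300 bases (0.0548). Among the smaller calls MKL1, a coactivator of SRF, was higher (0.23) and ATF1, a factor related to CREB, was lower (-0.25). These were called under 14 and 17 of the 20 alternatives. With that common total 1 gene of this list was higher and 5 lower, so the balance of its small changes depends on the scaling.

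Upstream of KLF2 and KLF4, 3 of 12 tested genes of the MEK5, ERK5 and MEF2 cascade were higher and 2 lower, with a median of 0.02, beside 54.0% called among all genes. MAP2K5, which encodes MEK5, fell to 11.7 ± 0.170 FPKM in normal serum, against 25.4 ± 0.447 FPKM in heat-inactivated serum (log2 -1.06, adjusted p = 1.38e-05). HDAC5, a deacetylase that restrains MEF2, rose by 0.49, and MAPK7, which encodes ERK5, by 0.30, a call made under 18 of the 20 alternatives. MEF2D rose by 0.48, a call lost with a common total FPKM (adjusted p = 0.0511). With that scaling 1 gene of the list was higher and 2 lower. KRIT1, whose loss raises KLF2 and KLF4 in cerebral cavernous malformation, fell to 6.37 ± 0.509 FPKM in normal serum, against 9.08 ± 0.116 FPKM in heat-inactivated serum (log2 -0.45, adjusted p = 0.00210).

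Of 20 genes described as EGR1 targets, mostly in vascular cells, 16 were higher and 1 lower, with a median log2 change of 0.98 beside 0.01 for all genes tested. Among all genes tested 27.8% were higher and 26.1% lower. Within replicates 2 and 3 alone 15 genes of the list were higher and 1 lower. F3, tissue factor, the starter of blood clotting, rose to 359 ± 18.0 FPKM in normal serum, against 97.5 ± 7.72 FPKM in heat-inactivated serum (log2 1.87, adjusted p = 3.64e-06). RCAN1, a calcineurin inhibitor, rose to 57.2 ± 2.81 FPKM in normal serum, against 18.8 ± 0.611 FPKM in heat-inactivated serum (log2 1.56, adjusted p = 3.83e-06). The matrix protein gene THBS1 rose by 1.80 and the vascular growth factor gene VEGFA by 1.68, while PDGFB, a platelet-derived growth factor gene, fell by 0.44. These genes respond to many factors, and EGR1 itself was not called. Some were known to be higher from earlier results of these data, so the count only describes the list.

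Genes described as induced by KLF2 or KLF4 in endothelium were largely silent. All 16 listed were in the table, but only 6 were high enough to be tested, and THBD, GJA4, EDNRB and KLK10 were listed at 0 in all libraries. NOS3, the endothelial nitric oxide synthase, was at or below 0.0148 FPKM in normal serum and listed at 0 in heat-inactivated serum. Of the 6 tested, NQO1, a quinone reductase, was higher, CYP1B1, PTGDS and ASS1 were lower, and 2 were not called. Among all genes tested 54.0% were called. With no filter 2 of 12 genes of the list were higher and 4 lower. PTGDS, a prostaglandin D synthase, fell to 20.2 ± 2.85 FPKM in normal serum, against 54.3 ± 3.39 FPKM in heat-inactivated serum (log2 -1.39, adjusted p = 5.97e-05).

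Of 9 tested genes described as repressed by KLF2 or KLF4, 7 were higher and 2 lower, with a median of 1.70. Among all genes tested 27.8% were higher and 26.1% lower, with a median of 0.01. The list was chosen with earlier results of these data known, so the count only describes it. Over all 12 listed, with no filter on low values, 7 were higher and 3 lower, with a median of 0.29. EDN1, the gene of the vasoconstrictor endothelin 1, rose to 131 ± 7.84 FPKM in normal serum, against 18.2 ± 2.50 FPKM in heat-inactivated serum (log2 2.79, adjusted p = 2.18e-06). IL6, an inflammatory cytokine gene, rose by 1.70, and THBS1 and F3 are also on the list of EGR1 targets. ADM, a vasodilator peptide gene, and VCAM1, a leukocyte adhesion gene, fell by 2.07 and 0.82. VCAM1 was called in all 19 alternatives that tested it, with values between -1.43 and -0.29. With libraries rescaled to a common total FPKM 5 were higher and 2 lower.

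Of 12 tested genes of the TGF-beta pathway and others linked to KLF6 and KLF10, 7 were higher and 3 lower, with a median of 0.30. Among all genes tested 27.8% were higher and 26.1% lower, with a median of 0.01. With libraries rescaled to a common total FPKM 5 genes of the list were higher and 3 lower, with a median of 0.16. CDKN1A, a cell cycle inhibitor that KLF6 is known to induce, rose by 1.37, TGFB1 by 1.12 and PLAU, the urokinase gene, by 1.12 on the log2 scale. SMAD3, a transducer of TGF-beta receptors, fell to 26.1 ± 1.40 FPKM in normal serum, against 57.4 ± 2.35 FPKM in heat-inactivated serum (log2 -1.11, adjusted p = 1.91e-05). The receptor genes TGFBR2 and TGFBR1 fell by 1.25 and 0.68. CDKN1A, TGFB1, PLAU and MMP14 are also among the EGR1 targets listed.

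**Figure D4:**
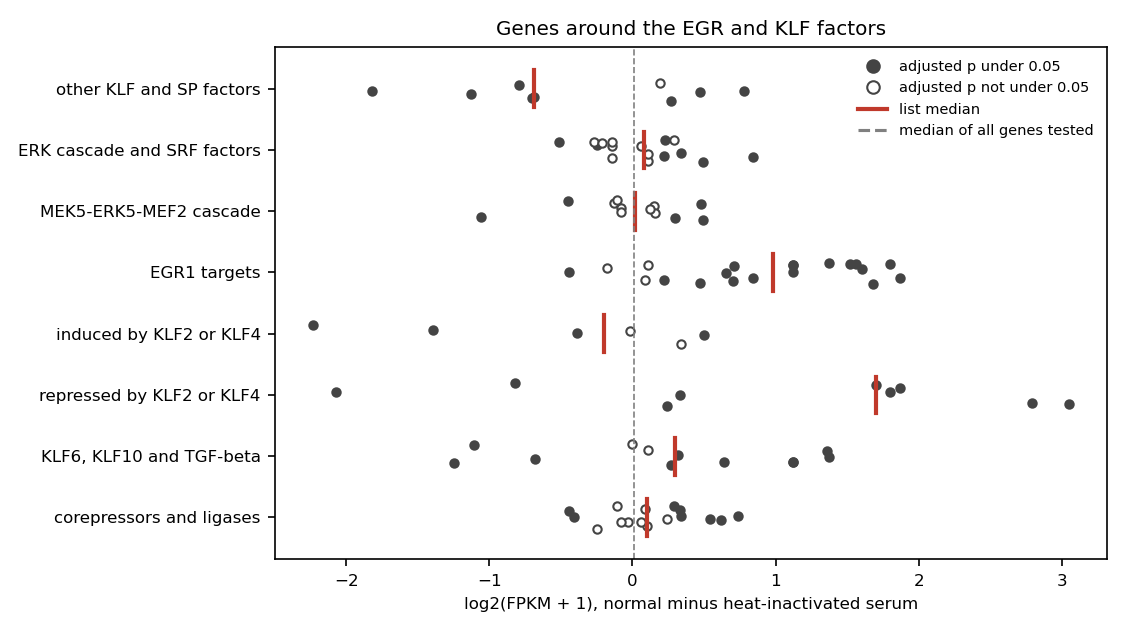
Log2 change in log2(FPKM + 1), normal minus heat-inactivated serum (x axis), of each tested gene of 8 lists (rows), with filled points for adjusted p under 0.05, red bars for the list medians and a dashed line for the median of all genes tested (0.01). The medians of the EGR1 targets (0.98) and of the genes repressed by KLF2 or KLF4 (1.70) lie to the right, that of the other KLF and SP factors (-0.69) to the left.

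Markers of other cell types moved between the treatments beside these results. The summed level of 11 mural and fibroblast markers was 4669 to 4920 FPKM in normal serum, against 7917 to 8423 FPKM in heat-inactivated serum. Of these markers 3 were higher (CSPG4, TAGLN and THY1) and 8 lower, beside 27.8% and 26.1% among all genes tested. TAGLN was not called after quantile normalization (adjusted p = 0.110). The 11 endothelial markers summed to 24.4 to 30.7 FPKM in normal serum, against 12.8 to 14.8 FPKM in heat-inactivated serum. Leukocyte, platelet and red cell markers summed to 13.5 to 16.2 FPKM in normal serum, against 14.5 to 19.4 FPKM in heat-inactivated serum. PPBP, HBB and ALAS2 were at 0 throughout. Pigment epithelium markers summed to 36.3 to 43.7 FPKM in normal serum, against 37.0 to 41.5 FPKM in heat-inactivated serum. Nearly all of that sum was PMEL, the only 1 of these 5 markers high enough to be tested. Fewer cells of a type and less RNA per cell cannot be told apart here, and the part of these shifts in the EGR and KLF results was not tested.

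**Figure D5:**
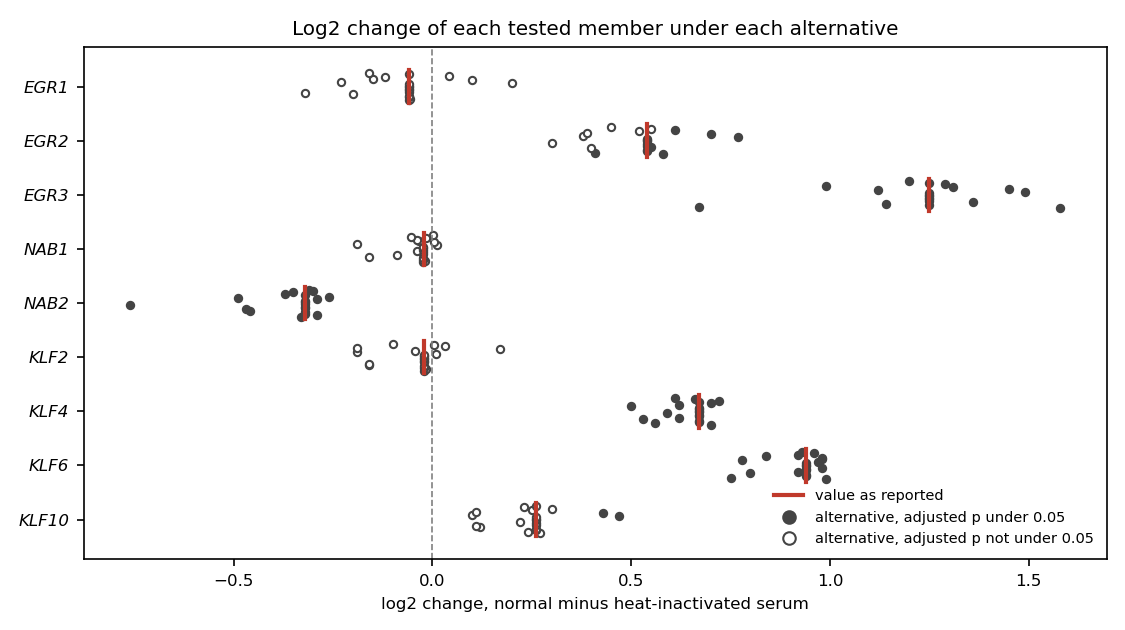
Log2 change, normal minus heat-inactivated serum (x axis), of each tested member as reported (red bar) and under each of the alternatives (points, filled where adjusted p is under 0.05). KLF4, KLF6, EGR3 and NAB2 keep filled points throughout, EGR2 has both kinds between 0.30 and 0.77, and the EGR1, NAB1 and KLF2 points lie on both sides of 0.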

How the data were processed

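Polyadenylated RNA was sequenced from 3 libraries per treatment, grouped by their labels. The submitters' processing notes name TopHat2 2.0.7, Cufflinks 2.1.1, Cuffdiff 2.1.1. The deposited table holds FPKM for 44605 transcripts per library, and for each transcript the p-value, q-value and log2 fold change that the authors obtained, normal over heat-inactivated serum. From these, FPKM were summed per symbol, after 256 of 7008 unnamed gene identifiers received a symbol from a table of gene names. Genes averaging 1 FPKM or more were tested as log2(FPKM + 1) with limma 3.58.1 in R 4.3.3 (trended variance, no covariate, Benjamini-Hochberg over all genes). Folds are ratios of mean FPKM. Exact permutation tests used scipy 1.17.1. Fragments are estimates from the lowest values, with mean fragment lengths fitted per library, and cover counting error only. Members and lists were chosen with earlier results of these data known. Genes named were all members, tested KLF and SP factors, up to 4 called genes per list with the smallest adjusted p (otherwise the 2 highest), and the 3 genes nearest to EGR1 and KLF4. Other genes, including the remaining calls of small lists, were named after their values were seen, and some genes of the lists are not reported here by name. The transcript test, counts of lists under alternatives and rescaling on the total of transcripts of at least 300 bases were added after seeing the data. Alternatives varied pseudocount, filter, scaling, variance model, summing and libraries.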

Additional observations from a re-analysis of the deposited data

How the results depend on the processing

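Of 20 alternatives, each kept the numbers of called genes (5166 to 7063, against 6381) and of called members (4 to 6, against 5) within 1.5 times. KLF4, KLF6 and NAB2 were called under all 20, and EGR3 under the 19 that tested it. With only the highest transcript, the NAB2 log2 change was -0.76 in place of -0.32. With a common total FPKM the median change of all genes was -0.12 in place of 0.01, and 34.7% of the calls were higher in place of 51.6%. With rescaling on transcripts of at least 300 bases these were -0.14 and 33.0%, and EGR2 was again not called (0.38, adjusted p = 0.0795). Besides the calls named in the text as lost with a common total FPKM, that of MKL1 (0.088, adjusted p = 0.496) and MAPK7 (0.18, adjusted p = 0.272) ended, and quantile normalization moved EGR1 to -0.32. Directions that reversed were all of uncalled genes, and the cause was not tested. Within replicates 2 and 3 alone the log2 change was 0.20 for EGR1, 0.011 for NAB1 and 0.0082 for KLF2. With 1 library left out in turn it ran from -0.16 to 0.10 for EGR1, from -0.053 to 0.0043 for NAB1, from -0.19 to 0.17 for KLF2 and from -0.034 to 0.093 for the marker PMEL. PMEL was -0.12 after rescaling to the same total FPKM, -0.12 after quantile normalization and -0.14 after rescaling on transcripts of at least 300 bases, against 0.02. Of 58 other genes with a change given by name 45 kept direction and side of the threshold under all alternatives run. The labels give both treatments replicate numbers 1 to 3. Deviations of same-numbered libraries correlated at 0.193, 0.033 and 0.006, so the numbers were not taken as pairs, and normal serum replicates 2 and 3 correlated better with heat-inactivated serum replicates 3 (0.106) and 2 (0.086) than with their own numbers. With a replicate block 5 members and 6775 genes were called. The pair of replicate 1 libraries had the highest correlation of all (0.193), and with a term for these libraries 5 members and 7063 genes were called. Depth limited EGR4, at 3 to 4 fragments per normal serum library.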

Other observations

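The corepressors and ubiquitin ligases that bind NAB or KLF proteins had a median log2 change of 0.10. Of 16 tested 6 were higher and 2 lower, beside 54.0% called among all genes, and with libraries rescaled to a common total FPKM 3 were higher and 3 lower. RBBP7, MTA2 and GATAD2A, subunits of the NuRD complex that NAB proteins recruit, rose by 0.62, 0.54 and 0.74 on the log2 scale (adjusted p = 0.000211, 0.000321 and 0.000629, limma). RBBP7 averaged 110 ± 4.68 FPKM in normal serum and 71.3 ± 3.48 FPKM in heat-inactivated serum (SD, n = 3 each). HDAC2, also of NuRD, was called higher, while CHD4, HDAC1, MTA1, RBBP4 and GATAD2B of the same complex were not called. CHD3, another NuRD subunit, fell by 0.41, and SIN3A, of a different histone deacetylase complex, fell by 0.44. CTBP2, the partner of KLF3 and KLF8, rose by 0.33, a call lost with that scaling (adjusted p = 0.138).

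The pattern of EGR1 over the 6 libraries was nearest to those of TNFRSF10D, a decoy death receptor gene, ZNF562 and TRIB2, with root mean square differences of 0.0718, 0.0746 and 0.0908 in centred log2(FPKM + 1) among 6948 genes averaging 10 FPKM or more. TNFRSF10D stood at 13.9, 17.8 and 19.2 FPKM in normal serum, against 19.2, 16.4 and 13.8 FPKM in heat-inactivated serum. KLF4 was nearest to WFS1, MAP3K11 and TBC1D10A (0.0385, 0.0390 and 0.0390). WFS1, which encodes an endoplasmic reticulum membrane protein, stood at 61.2, 52.5 and 54.7 FPKM in normal serum, against 36.0, 33.6 and 33.5 FPKM in heat-inactivated serum.

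A KLF10 transcript model of 2839 bases was at 2.19, 0.00412 and 1.37 FPKM in normal serum, against 0.0128, 0.000626 and 0.000984 FPKM in heat-inactivated serum, so it passed 1 FPKM in 2 of 6 libraries, both of normal serum. SP7, a bone cell factor under the filter, was at 0.155 to 0.281 FPKM in normal serum, against 1.24 to 1.46 FPKM in heat-inactivated serum, without overlap.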
